A study of Mus musculus with 168 samples.

Results

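Small nucleolar RNA (snoRNA) and small Cajal body RNA (scaRNA) genes were followed in neurons of mice with spinal muscular atrophy (SMA) and of their control littermates. The members were the rows of the expression table whose symbol starts with Snord, Snora or Scarna. They had to reach 1 RPKM (reads per kilobase of gene and mega-read of the library) in at least 3 libraries. Of 39410 rows, 77 were kept. They were 45 of 76 box C/D rows (Snord), 23 of 38 box H/ACA rows (Snora) and 9 of 9 Cajal body rows (Scarna). Of the 46 rows left out, 41 were at 0 in every library. The members were thus chosen by their RPKM in these libraries, so their being detected is not a result. Just inside the rule were Snord123 with 3 libraries at or above 1 RPKM and Snord71, Snora2b, Snord93 and Snord85 with 4 each. Just outside were Snord111 with 2, and Snord45c, Snord32a, Snora36b and Snord88c with 1 each. The 1 library with Snord45c held 197.5 RPKM of it. No row of Snord3, Snord113, Snord114, Snord115 or Snord116 was kept. A further 11 rows with the prefix in capitals (SNORD, SNORA or SCARNA) were outside the rule and were not looked at.

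Neurons were cut by laser from frozen sections, about 150 cells per tube, and made into polyA RNA libraries by Smart-seq2 and Tn5 tagmentation. The SMA animals were delta7 mice, Smn-/- with the human transgenes SMN2+/+ and SMN∆7+/+, and the controls were Smn+/+ on both of these transgenes. Motor neurons came from the ocular (oculomotor and trochlear), facial, vagus and hypoglossal nuclei and the lumbar spinal cord, and red nucleus neurons, which are not motor neurons, came from the midbrain, at postnatal days 2, 5 and 10. There were 168 libraries from 19 SMA and 15 control mice, giving 160 samples of 1 mouse and 1 population in 36 groups of 3 to 7 mice. A mouse usually gave several populations, so populations are not independent, while SMA and control values come from different mice. The libraries held 0.342 to 16.3 mega-reads (Mreads), with a median of 5.89. This depth was read from the steps of the RPKM values, so it need not be all reads sequenced. Of the ocular libraries 11 held 1 of the 2 nuclei alone, and the 5 lumbar control libraries of day 5 include reads of an earlier deposit. Smn1, the gene disrupted in SMA mice, ran from 4.32 to 63.3 RPKM in control samples and from 0 to 4.24 in SMA samples, without overlap. The motor neuron markers Chat, Slc5a7, Isl1 and Prph summed to 452 to 1966 RPKM in each motor neuron sample and to 4.15 to 100.5 in the red nucleus.

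Box C/D snoRNA guide methylation of ribosomal and spliceosomal RNA, box H/ACA snoRNA guide the conversion of uridine to pseudouridine, and scaRNA do the same for spliceosomal RNA in Cajal bodies. In mammals most of them are cut out of the introns of a host gene. A few have their own promoter, among them Snord13 (U13) and Snord118 (U8), which act in the maturation of ribosomal RNA and not as ordinary methylation guides. SMN, the protein that is short in SMA, assembles spliceosomal ribonucleoproteins and gathers in Cajal bodies. Mature snoRNA mostly lack a poly(A) tail, so reads of these genes in polyA libraries may come from mature RNA, from longer forms or from the host transcript, and these were not told apart here.

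The sequences of Snord118, Snord104 and Snord64 are shown because they are the members beside Snord13 that the comparisons below turn on, and Snora23 because it was the most abundant box H/ACA member. They are the GENCODE M21 transcripts (GRCm38, 5′ to 3′). Capitals mark the first box C match (ATGATGA or GTGATGA) and the last box D match (CTGA) of the Snord rows, and in Snora23 the ACA that lies 3 bases before the end.
Snord118: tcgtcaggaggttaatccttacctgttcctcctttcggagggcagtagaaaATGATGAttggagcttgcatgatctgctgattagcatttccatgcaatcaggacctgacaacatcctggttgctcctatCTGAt
Snord104: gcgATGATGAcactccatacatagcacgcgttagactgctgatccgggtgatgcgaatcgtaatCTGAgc
Snord64: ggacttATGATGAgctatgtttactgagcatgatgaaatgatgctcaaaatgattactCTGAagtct
Snora23: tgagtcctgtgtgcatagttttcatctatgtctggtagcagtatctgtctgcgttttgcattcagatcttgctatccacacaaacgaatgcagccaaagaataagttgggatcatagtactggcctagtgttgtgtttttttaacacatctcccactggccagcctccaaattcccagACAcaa

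Box C begins at base 4 of Snord104 and at base 7 of Snord64, but at base 52 of Snord118. On the transcribed strand, a box C match followed by a box D match was found in 31 of 45 box C/D members, 0 of 23 box H/ACA members and 5 of 9 Cajal body members. The same was found in 0.298% of the first 104 bases of 58734 protein coding transcripts, 104 bases being the members' median length. The ACA 3 bases before the end was found in 20 of 23 box H/ACA members, 0 box C/D members and 2 Cajal body members, and 1.39% of the coding windows had an ACA in the same place. These are letter matches in the annotated transcripts, and a member without one is not shown to lack the box.

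Snord13 and Snord118 (chr11:69073427-69073561, plus strand) had no annotated gene on their strand around them. The same held for Snord104 (chr11:106500993-106501062, plus strand), Scarna2 and Scarna17. All other members lay inside a gene, such as Snord64 (chr7:59978808-59978874, minus strand) in Gm38393, a noncoding gene of the imprinted Prader-Willi region. For 60 members the surrounding gene was itself a row of the table. Of these, 42 were in an intron and 18 overlapped an exon of some transcript, so host reads may be counted in them. The host stood above the member in 57 of 60 cases. Across the 160 samples the correlation of a member with its host, on the log2(RPKM + 1) scale, had a median of 0.051 and ran from -0.220 to 0.351. This is a description over samples that share mice and depth. Of the 77 members, 48 had a mean below 1 RPKM, so low correlations do not show that members vary apart from their hosts.

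A few box C/D genes carried most of the signal. The 10 most abundant members held 75.0% of the summed mean RPKM, and all 12 most abundant were box C/D. Mean levels over the 160 samples were 44.6 RPKM for Snord49b, 44.03 for Snord104, 37.6 for Snord64, 27.8 for Snord35a and 23.8 for Snord13. Snord72, Snord107, Snord7, Snord100, Snord65, Snord42b and Snord118 followed with 18.9, 14.8, 14.2, 11.7, 9.504, 7.53 and 6.42. Snord49b and Snord65 lie in introns of 2410006H16Rik and Snord35a in an intron of Rpl13a, a ribosomal protein gene. Snora23, in an intron of Ipo7, was the highest of the box H/ACA members with 5.62. The 9 Cajal body members had means of 0.133 (Scarna3b) to 1.05 (Scarna3a). In all, 9 members had a mean of at least 10 RPKM, 20 were between 1 and 10, and 48 were below 1.

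**Figure D1:**
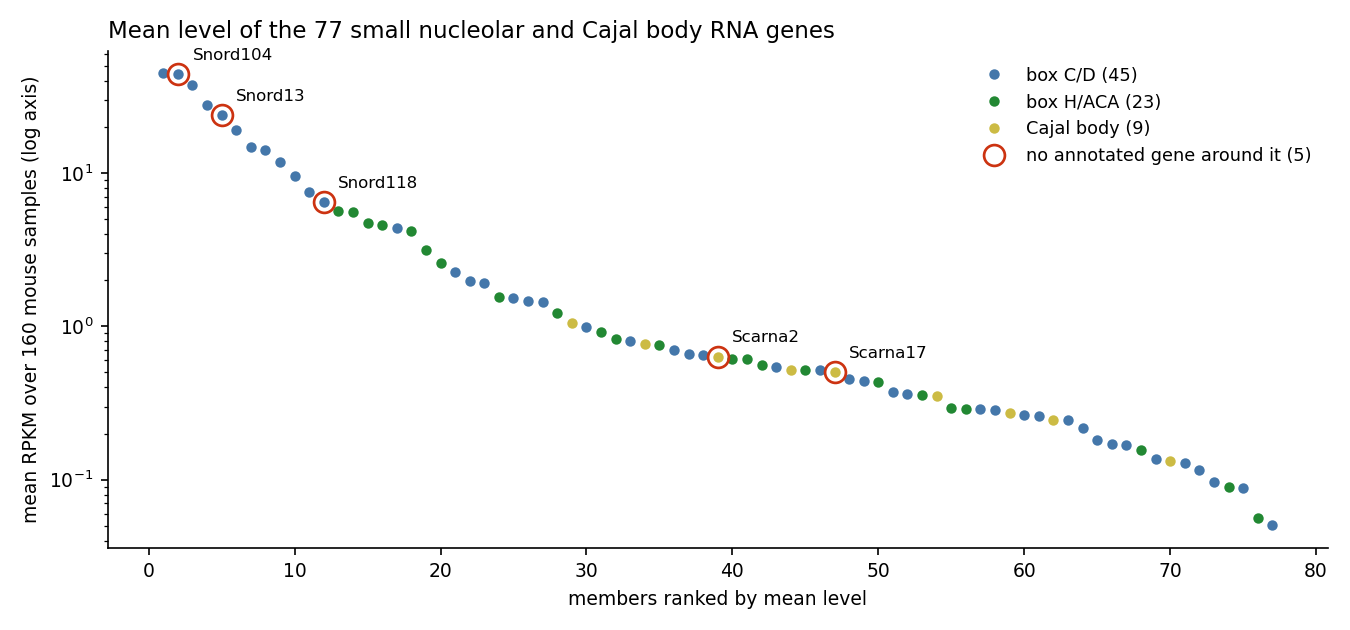
Mean RPKM of each of the 77 members over 160 mouse samples (vertical axis, log scale), ranked from high to low and coloured by class. Red rings mark the 5 members with no annotated gene around them. Snord104 and Snord13 are in the high group with means of 44.03 and 23.8, Snord118 has 6.42, and the rings of Scarna2 and Scarna17 are below 1.

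These values rest on few reads. The RPKM of 76 members moved in steps of whole reads (within 0.01 of a read), and they came to 31374 reads in all libraries, of which 2745 were Snord13. Snord67 did not step in whole reads, so its read number is not given. A single read of Snord13 was worth 1.63 RPKM in the median library and 28.1 in the shallowest. A library had 8 to 44 members above 0 (median 22), and over libraries this number went with log2 depth (r = 0.477, a description). The libraries carry no molecular identifiers, so a floor of 3 reads and the counting intervals below cover counting error only.

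Whether SMA and control neurons differ was asked in 18 contrasts of population and age. The members were tested 801 times, 67 members in at least 1 population and 27 in all 18 contrasts, while 10 did not pass the filter on low values in any. A total of 8 tests passed an adjusted p of 0.05, or 0.999%, all of them higher in SMA. Over all rows, 0.129% of tests passed, 0.11% higher and 0.0189% lower. In the contrasts with a called member the share of all rows called was 0.0232%, 0.0695% and 0.666% in facial neurons at days 2, 5 and 10. At day 10 it was 0.359% in ocular, 0.0728% in hypoglossal and 0.775% in lumbar neurons. Of the 8, 6 were Snord13, and the others were Snord104 in lumbar and Snord67 in ocular neurons, both at day 10. Without Snord13, 2 of 783 tests passed (0.255%), with a median log2 difference of 0.17 against 0.05 for all rows. An increase of Snord13 in these mice was known when it was chosen, so its calls are given here as a description and support nothing further.

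Control neurons held little Snord13 in every population. Over 72 control samples its level was 5.78 ± 6.08 RPKM (SD), with a median of 4.51 and 16 samples at 0. Over 88 SMA samples it was 38.5 ± 38.9 (SD), with a median of 26.8 and 1 sample at 0. In reads, this was 305 of Snord13 among 496.5 Mreads in control and 2440 among 569.6 Mreads in SMA libraries. The SMA values spread far more than the control values, from 0 to 176.6 against 0 to 33.8. In bulk libraries of pooled cells, more cells with the RNA and more RNA per cell cannot be told apart.

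**Figure D2:**
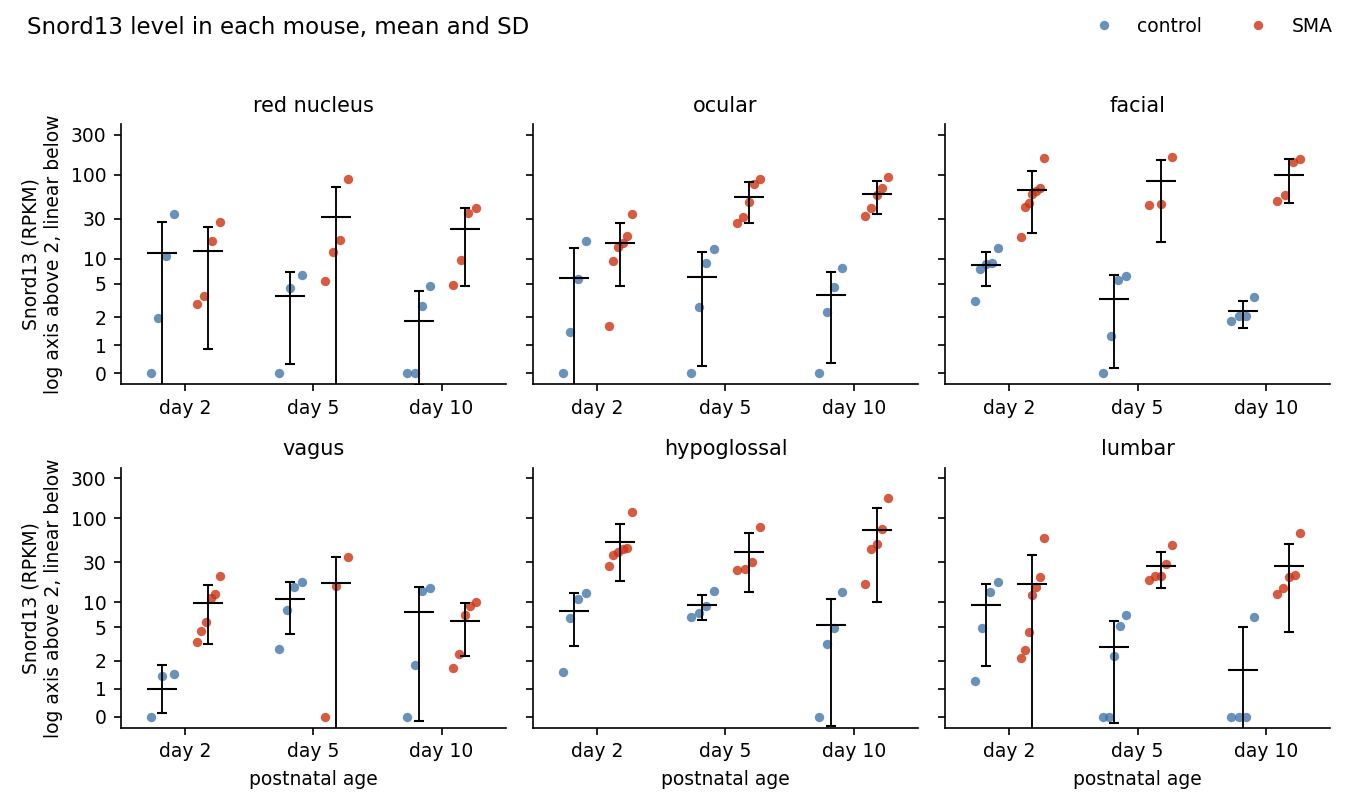
Snord13 level in RPKM (vertical axis, logarithmic above 2 and linear below) in every mouse by postnatal day, with 1 panel per population. Blue points are control and red points SMA mice, and black bars give the mean and SD. In the facial panel the SMA mice lie above all controls at each day, and in the vagus panel the genotypes overlap at days 5 and 10.

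Facial motor neurons gave the clearest separation. At day 2 the 5 control mice had 3.16, 7.65, 8.75, 8.97 and 13.3 RPKM of Snord13, and the 7 SMA mice had a lowest value of 18.2, a median of 58.9 and a highest of 160.4. The lowest SMA mouse was above the highest control, and the library behind the highest value was the second shallowest of the series, with 1.44 Mreads and 24 reads of Snord13. The log2 difference was 2.68 (SE 0.483, limma adjusted p = 0.0408). The call was lost with a pseudocount of 0.1 (adjusted p = 0.201), with no filter on low values (0.0815) and when the 2 groups were fitted alone (0.0521). It was also lost without 14 of 27 single mice, with values up to 0.12. In these groups they were control mice 14, 28, 240 and 244 and SMA mice 18, 38, 206, 207 and 211, and at other ages mice 61, 77, 253, 254 and 258.

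At day 5 the facial controls had 0, 1.33, 5.62 and 6.26 RPKM and the 3 SMA mice 43.3, 45.6 and 162. The log2 difference of Snord13 was 4.42 (SE 0.63, adjusted p = 0.000935). All 8 oligodendrocyte markers had differences below 0 in these groups (median log2 difference -1.23, none called), and their sum ran from 99.1 to 665 RPKM in controls and from 59.7 to 109.3 in SMA. At day 10 the controls had 1.87, 2.05, 2.07 and 3.48, which were 1 or 2 reads each, and the SMA mice 49.5, 57.1, 142 and 152.8. The genotypes did not overlap at either age, and the day 10 log2 difference of 4.76 (SE 0.583, adjusted p = 1.56e-05) was the largest of the 18. Pooled over mice, Snord13 took 10.4 reads per Mread in SMA and 0.228 in control libraries, a ratio of 45.7 with a 95% exact conditional interval of 19.1 to 143.0. The astrocyte gene Gfap was also higher in SMA facial samples at day 10 (log2 difference 2.81, adjusted p = 0.00742). It was the 1 of 8 astrocyte markers called there, none of them was at 0, and their sum ran from 1972 to 2253 RPKM in controls and from 1850 to 2479 in SMA. The 8 microglia markers all had differences above 0 at day 10, with sums of 3.82 to 9.54 in controls and 5.32 to 42.9 in SMA and none called. The part of RNA from these other cells in the Snord13 differences was not tested.

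Ocular, hypoglossal and lumbar motor neurons also passed the threshold at day 10. Ocular controls had 0, 2.31, 4.56 and 7.74 RPKM of Snord13 and ocular SMA mice 32.0, 40.7, 57.4, 70.1 and 95.5 (log2 difference 3.98, SE 0.773, adjusted p = 0.00887). Hypoglossal controls had 0, 3.15, 4.86 and 13.3 and SMA mice 16.2, 43.3, 49.4, 74.2 and 176.6 (log2 difference 3.68, SE 0.626, adjusted p = 0.0065). Lumbar controls had 0, 0, 0 and 6.74 and SMA mice 12.4, 14.9, 19.8, 21.3 and 67.3 (log2 difference 3.80, SE 0.786, adjusted p = 0.0109).

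In the same ocular samples the 4 motor neuron markers were lower without a call (median log2 difference -0.48), and their sum did not overlap between controls (926 to 1024 RPKM) and SMA (452 to 875). The sum of the red nucleus markers Pou4f1 and Slc17a6 ran from 4.74 to 16.9 in ocular controls and from 9.07 to 176.9 in SMA, and in hypoglossal neurons from 3.46 to 13.1 and from 17.7 to 27.0. The part of these in the day 10 differences of any member was not tested.

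The genotypes did not overlap for Snord13 in any of these, although lumbar controls held 2 Snord13 reads in 17.0 Mreads and SMA 57 in 18.2 Mreads, a ratio of 26.7 with an interval of 7.05 to 225.4. The ocular call was lost without control mouse 247 (adjusted p = 0.0855), with a pseudocount of 0.1 (0.139) and in libraries of the combined nuclei only (0.134). Without control mouse 247, 252 or 254 the lumbar value was 0.0574, 0.0529 or 0.0514. When the 2 groups were fitted alone, without the spread shared with the other groups, facial day 5 had an adjusted p of 0.129 and hypoglossal day 10 of 0.163.

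Outside the called contrasts the picture was mixed. The genotypes did not overlap, with SMA higher, in 12 of 18 contrasts for Snord13, against 1.95% of all tests. Over the members the genotypes did not overlap in 28 tests with SMA higher and 2 with SMA lower (1.11% of all tests). Without Snord13 there were 16 with SMA higher among 783 tests, close to the share of all rows. The other 76 members' summed RPKM did not overlap in facial neurons at day 5 (controls 230.4 to 329.4, SMA 489.1 to 583.4). The same held at day 10 in facial (166.3 to 226.6, 247.8 to 476.6) and ocular neurons (157.6 to 219.1, 257.8 to 379.7). It also held in lumbar neurons of that age (112.8 to 182.2, 183.8 to 270.3). The 10 most abundant of the 77 members held 75.0% of the summed mean RPKM, so such sums weigh a few genes most. No share over sums of other rows was taken. The sums overlapped elsewhere, were not tested, and had a lower SMA mean in the red nucleus at day 10 alone (204.3 against 244.5). The highest control sum there, 415.5, came from the shallowest library (0.342 Mreads, 8 members above 0), and the lower SMA mean leans on that library. Of the 12 Snord13 contrasts without overlap, the 6 without a call were ocular and lumbar day 5, hypoglossal days 2 and 5, vagus day 2 and red nucleus day 10. For Snord13, hypoglossal mice at day 2 had 7.93 ± 4.96 (SD, n = 4) in controls and 51.5 ± 33.8 (SD, n = 6) in SMA (log2 difference 2.63, adjusted p = 0.119). In ocular neurons at day 5 the values were 6.13 ± 5.87 (SD, n = 4) and 54.6 ± 27.7 (SD, n = 5), with an adjusted p of 0.181. Lumbar neurons at day 5 had 2.88 ± 3.11 and 27.2 ± 12.6 (SD, n = 5 each, adjusted p = 0.102). The unadjusted p of Snord13 was under 0.05 in 14 of the 18 contrasts and its difference was above 0 in 17.

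Vagus motor neurons had the lowest SMA values. At day 2 their controls had 0, 1.44 and 1.53 RPKM of Snord13, and the 6 SMA mice ran from 3.33 to 20.4, without overlap but on 2 control reads. At day 5 controls had 2.80, 8.07, 15.1 and 17.4 and SMA mice 0, 15.6 and 34.9, and at day 10 controls had 0, 1.86, 13.6 and 14.8 and SMA mice 1.72, 2.43, 7.12, 8.89 and 9.90. The genotypes overlapped at both ages, with log2 differences of -0.25 and 0.26. Both signs turned when 1 mouse was left out, at day 5 without control mouse 29 (0.036) or SMA mouse 77 (1.28) and at day 10 without control mouse 252 (-0.52) or 254 (-0.017). Pooled over mice, the ratio of reads per Mread was 1.68 at day 5, with an interval of 1.095 to 2.61. The day 10 ratio was 0.939, with an interval of 0.428 to 2.14. These intervals do not cover the spread between mice.

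Red nucleus neurons, which are not motor neurons, had Snord13 values that overlapped at day 2 (controls 0, 1.97, 10.8 and 33.8, SMA 2.90, 3.59, 16.1 and 27.4), with a log2 difference of 0.71 that was -0.14 without control mouse 244. At day 5 controls had 0, 4.46 and 6.45 and SMA mice 5.48, 12.1, 16.9 and 90.4. The highest of these was mouse 31. It also had the highest Snord13 of its group in facial, ocular and hypoglossal neurons, but not in lumbar or vagus neurons. The log2 difference was 2.49 with it and 1.74 without it (adjusted p = 1 in both). At day 10 the controls had 0, 0, 2.74 and 4.70 and SMA mice 4.91, 9.73, 35.005 and 40.1 (log2 difference 3.03, adjusted p = 0.602). A control at 0 there was the shallowest library, with 0.342 Mreads, where 3 reads would be 84.4 RPKM, so its 0 allows a level above all SMA mice. Without that mouse the log2 difference was 2.66 (adjusted p = 0.988).

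Ordered by level in SMA mice, Snord13 had 79.4 ± 50.9 RPKM in facial (SD, n = 14), 55.1 ± 42.8 in hypoglossal (SD, n = 15) and 41.4 ± 29.0 in ocular neurons (SD, n = 16). Lumbar neurons had 22.8 ± 18.6 (SD, n = 17), the red nucleus 22.1 ± 24.8 (SD, n = 12) and the vagus 9.89 ± 9.17 (SD, n = 14). Neighbours in this order differed by less than the larger of their SDs. In controls the 6 population means lay between 4.44 and 7.47, and no population passed the threshold against the others. The test of whether the genotype difference changed with population missed the threshold at each day, with a lowest adjusted p of 0.309 at day 10 (unadjusted 0.00496). The test of change with age gave a lowest adjusted p of 0.442, in lumbar neurons (unadjusted 0.00857). Over all SMA samples the median was 18.5 at day 2, 29.4 at day 5 and 37.6 at day 10, and over all controls 6.17, 5.94 and 2.19.

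The neighbours of Snord13 on the chromosome were tested in the same 18 contrasts, in which 0.129% of the tests of all rows passed. Tti2, which encodes a partner of the Tel2 complex, was called in 0 of 18 contrasts (lowest adjusted p 0.387). Rnf122 and Dusp26 were called in 0 of 18 as well. Mak16 was called in 1, higher in SMA lumbar neurons at day 10 (log2 difference 1.04, limma adjusted p = 0.0209). Snord13 was called higher in that contrast too, and 0.775% of all rows were called in it. Other independently transcribed small RNA genes in the table did not pass. U3 (Rnu3a), a box C/D RNA outside the naming rule, was called in 0 of 18 with a lowest adjusted p of 0.199 and differences above 0 in 15. Rmrp, Rn7sk and Rpph1 were each called in 0 of 18, with lowest adjusted p of 0.394, 0.4 and 0.42.

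Snord13 was the member with the most calls, but in the sign of the differences Snord118 matched it. Snord118 passed the limma threshold in 0 of 18 contrasts, with an unadjusted p under 0.05 in 8. Its difference was above 0 in 17 and its median log2 difference over the contrasts was 1.92, against 2.66 for Snord13. The other 25 members tested in all 18 contrasts had medians from -0.56 to 0.81. Over all samples Snord118 had 2.28 ± 3.68 RPKM in controls (SD, n = 72), with 44 samples at 0, and 9.81 ± 10.3 in SMA (SD, n = 88), with 21 at 0. It had 143 reads in control and 730 in SMA samples.

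The nearest approach of Snord118 to the threshold was in ocular neurons at day 10. Controls had 0, 0.671, 5.28 and 8.17 RPKM and SMA mice 20.1, 21.2, 23.1, 30.8 and 33.3, with no overlap (log2 difference 3.06, SE 0.719, adjusted p = 0.0549). In facial neurons at day 10 controls had 0, 0, 3.16 and 7.19 and SMA mice 10.2, 14.5, 18.0 and 45.8, again with no overlap (adjusted p = 0.295). At day 2 all 4 ocular controls were listed at 0, and the 6 SMA mice ran from 1.76 to 12.5 (adjusted p = 0.13). The sum of oligodendrocyte markers did not overlap there either, with 28.1 to 45.2 RPKM in controls and 46.6 to 164.1 in SMA, and its part was not tested. Snord118 was low in vagus neurons of both genotypes, with 0.7 ± 1.23 in controls (SD, n = 11) and 3.04 ± 4.97 in SMA (SD, n = 14). It was the nearest member to Snord13 over the 160 samples on the log2(RPKM + 1) scale (r = 0.436), followed by Snord64 (0.432) and Snord49b (0.4). These correlations describe samples that share genotype, mice and depth.

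**Figure D3:**
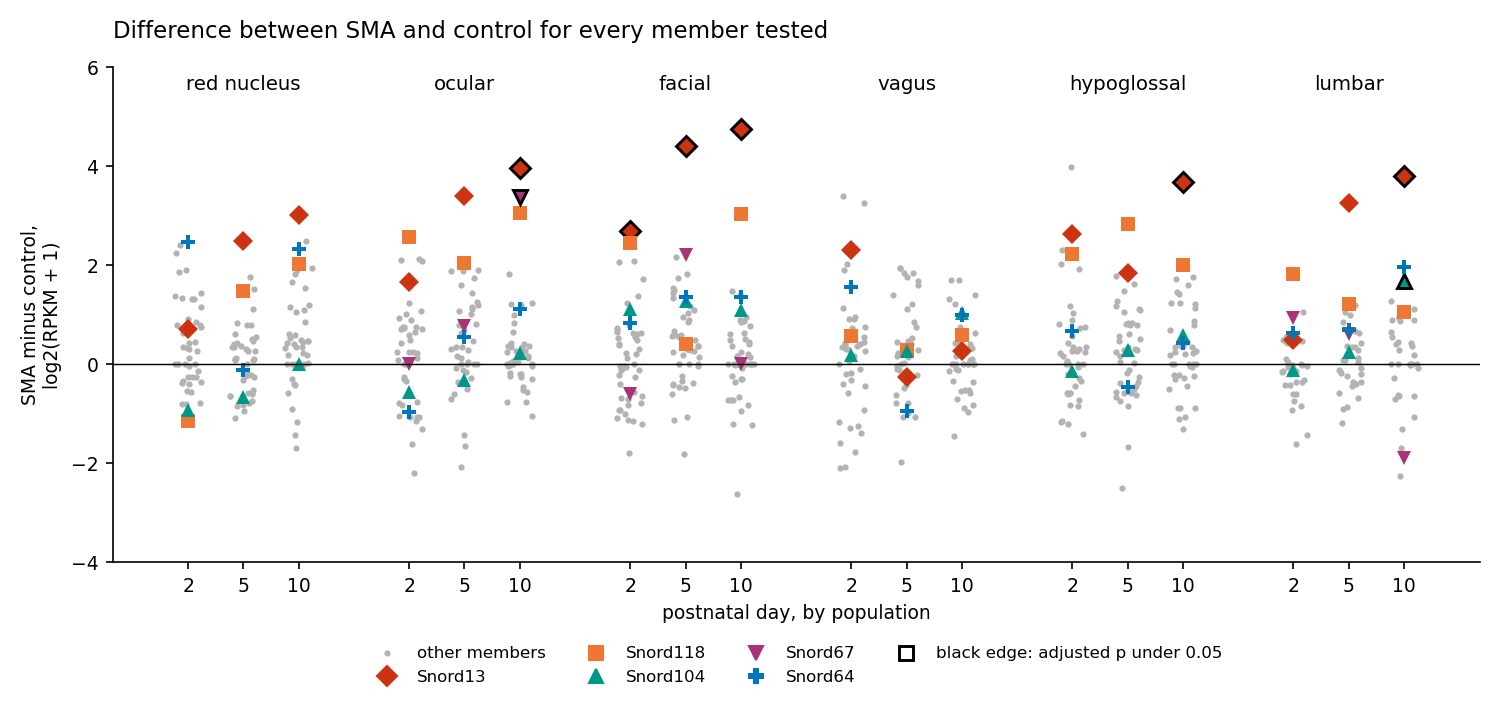
Difference between SMA and control on the log2(RPKM + 1) scale (vertical axis) for every member tested, in each population and day (horizontal axis). Grey points are other members, and a black edge marks an adjusted p under 0.05. Snord13 is the highest point in 10 of 18 contrasts, Snord118 is above 0 in 17, and both lie between 0 and 1 in vagus neurons at day 10.

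Snord104 was abundant in both genotypes, with 39.2 ± 23.8 RPKM in controls (SD, n = 72) and 47.9 ± 24.9 in SMA (SD, n = 88). In lumbar neurons at day 10 controls had 15.01, 15.8, 42.5 and 50.7 and SMA mice 58.0, 71.3, 104.6, 110 and 110.5, without overlap (log2 difference 1.67, SE 0.343, adjusted p = 0.0107). Without control mouse 247 or 253 the adjusted p was 0.0689 or 0.0673, and with the 2 groups fitted alone it was 0.0733. The facial groups did not overlap at days 5 and 10 either, from 31.2 ± 7.94 to 77.4 ± 24.8 and from 36.01 ± 8.71 to 78.8 ± 24.1, but did not pass (adjusted p = 0.975 and 0.878). In lumbar neurons the control and SMA means were 47.4 and 45.6 at day 2 and 27.2 and 29.0 at day 5. Its difference was above 0 in 11 of 18 contrasts and below in 7, unlike the 17 and 1 of Snord13 and Snord118.

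Snord67, a guide for the U6 spliceosomal RNA, lies in Ckap5 and overlaps an exon of it. It was listed at 0 in 69 of 72 control and 72 of 88 SMA samples. In ocular neurons at day 10 the 4 controls were at 0 and the SMA mice had 0, 9.37, 10.4, 23.1 and 41.7 RPKM, so the genotypes overlapped at 0 (limma adjusted p = 0.0201). The call was lost with no filter on low values (0.051), with the 2 groups fitted alone (0.194), and without any of 8 single mice of day 10 (control 247, 252, 253 and 254, SMA 196, 199, 249 and 250), where it reached 0.0779. At day 10 the genotype difference of Snord67 also changed with population (adjusted p = 0.0376), the only member of 77 to pass in any of the 3 such tests per member, or 0.433% against 0.395% of all rows (0.579% at day 10). In lumbar neurons at day 10 its means went the other way, 6.54 in controls and 0 in SMA. The change of the genotype difference with age passed for 0 members of 267 tests in limma, with 22 at an unadjusted p under 0.05, and for 0.0344% of all tests.

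The members with no gene around them, Snord13 left out, had 45 of 57 differences above 0 and a median of 0.50. Of the 45, 17 were of Snord118, 11 of Snord104, 10 of Scarna2 and 7 of Scarna17. The 62 members inside a gene had 391 of 726 above 0 and a median of 0.12. The first set is small and was looked at because Snord13 belongs to it. Scarna2 had differences above 0 in 10 of 12 contrasts, on 295 reads in all. Scarna17 rested on 42 reads in all. No Cajal body member was called in any contrast, and the median of these members was 0.31. The box H/ACA members, 20 of them tested, had 135 of 264 differences above 0, a median of 0.03 and no call.

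Members inside host genes could differ widely from mouse to mouse. Snord49b was an example in hypoglossal neurons at day 2, where controls had 2.30, 3.47, 13.2 and 23.1 RPKM. The 6 SMA mice had 20.8 and 27.8 in 2 of them and 231.02, 286, 309 and 440 in the other 4, so the groups overlapped (log2 difference 3.99, adjusted p = 0.0556). Over all SMA samples Snord49b ran from 0 to 473, with a median of 21.8 against 13.1 in controls. Within a mouse the populations could differ as widely. SMA mouse 206 at day 2 had 473 in facial and 363 in red nucleus neurons, but 2.47 in ocular neurons. Its facial library was the second shallowest of the series (1.44 Mreads). All members summed to 1673.5 RPKM there, against 266 to 521 in the other facial SMA libraries of day 2. Snora41, in an intron of Eef1b2, had 0, 2.74, 8.05 and 11.98 RPKM in ocular controls at day 2 and was listed at 0 in all 6 SMA mice, which overlap at 0 (adjusted p = 0.0802).

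Few of the genes for proteins that make and carry these RNAs were called, where 0.129% of the tests of all rows passed. A lack of calls in such short lists is therefore no result about these genes. Of the box C/D core proteins Nop56, Nop58 and Nhp2l1 and the box H/ACA core proteins Dkc1, Gar1, Nhp2 and Nop10, 0 were called in any contrast. Fbl was too low to be tested. The same held for the factors that trim small RNA ends (8 rows, among them Parn and Toe1) and for the Integrator, which ends small nuclear RNA transcripts (14 rows). Of 15 assembly and trafficking factors, Ruvbl2, an ATPase of the assembly machinery, rose in facial neurons at day 10 (log2 difference 1.01, SE 0.235, adjusted p = 0.0373). Of 53 host genes, Rabggtb rose in lumbar neurons at day 10 (0.63, adjusted p = 0.00217). Of 12 noncoding host rows, Snhg11 fell there (-0.60, adjusted p = 0.0107). Of the markers of other cells, Mbp of oligodendrocytes rose in the red nucleus at day 2 (log2 difference 2.22, adjusted p = 0.0351), and no microglia, vessel, motor neuron or red nucleus marker that could be tested was called (4 to 8, 3 to 6, 2 to 4 and 1 to 2 of them, by population). Of 16 rows for spliceosomal and other small nuclear RNA, 8 to 11 could be tested in a population and 0 passed. The median differences of the lists of processing, host and small RNA genes lay between -0.39 and 0.95 over the contrasts, against -0.01 to 0.13 for all rows.

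Over the 14289 rows that passed the filter in every population, those most like Snord13 across the 160 samples were Snrpa1 (r = 0.566), Cdkn1a (0.551), Lrdd (0.518), Uspl1 (0.495) and Fat1 (0.477). Snrpa1 encodes a protein of the U2 small nuclear ribonucleoprotein, Cdkn1a a cell cycle inhibitor, and Uspl1 a Cajal body protein. All of these were above the nearest member, Snord118, but they are the top of 14289 rows and it is the top of far fewer. Their order is therefore no result about how like the other members Snord13 is. Genotype is shared by these values, so they describe samples and not a link.

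With age the members that passed in controls fell. Day 10 was compared with day 2 in 6 populations, and 3 of 267 tests passed (1.12%), all lower, against 7.06% of all rows tested, 3.38% higher and 3.67% lower. Snord64 in ocular controls went from 43.2, 45.1, 77.0 and 131 RPKM at day 2 to 8.23, 14.4, 22.2 and 24.1 at day 10 (log2 difference -1.996, SE 0.419, adjusted p = 0.00268). In lumbar controls it went from 13.6, 21.7, 46.0 and 81.3 to 0, 4.07, 5.51 and 20.9 (log2 difference -2.70, SE 0.668, adjusted p = 0.0062). The ocular ages did not overlap and the lumbar ages did.

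Ocular SMA mice at day 10 had 30.8, 31.1, 31.1, 35.4 and 57.2 RPKM of Snord64, above every control of that age, with an adjusted p of 0.504 between genotypes. Snora41 fell in ocular controls from 5.69 ± 5.36 to 0.26 ± 0.3 (SD, n = 4 each, adjusted p = 0.0336). This call was lost without control mouse 26, 244, 247, 252, 253 or 254 (adjusted p up to 0.147), with a pseudocount of 0.1 (0.108) and with no filter (0.0587). Snord35a was lower at day 10 in 5 of 6 populations without a call. Snora23 was lower in 6 of 6 and Snord13 in 5 of 6, again without a call. The members' median age difference was -0.25, against -0.03 for all rows, and it was lowest in lumbar neurons (-0.61). Day 10 libraries had a median depth of 4.98 Mreads in controls against 6.51 at day 2, and the part of depth in these falls was not tested.

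**Figure D4:**
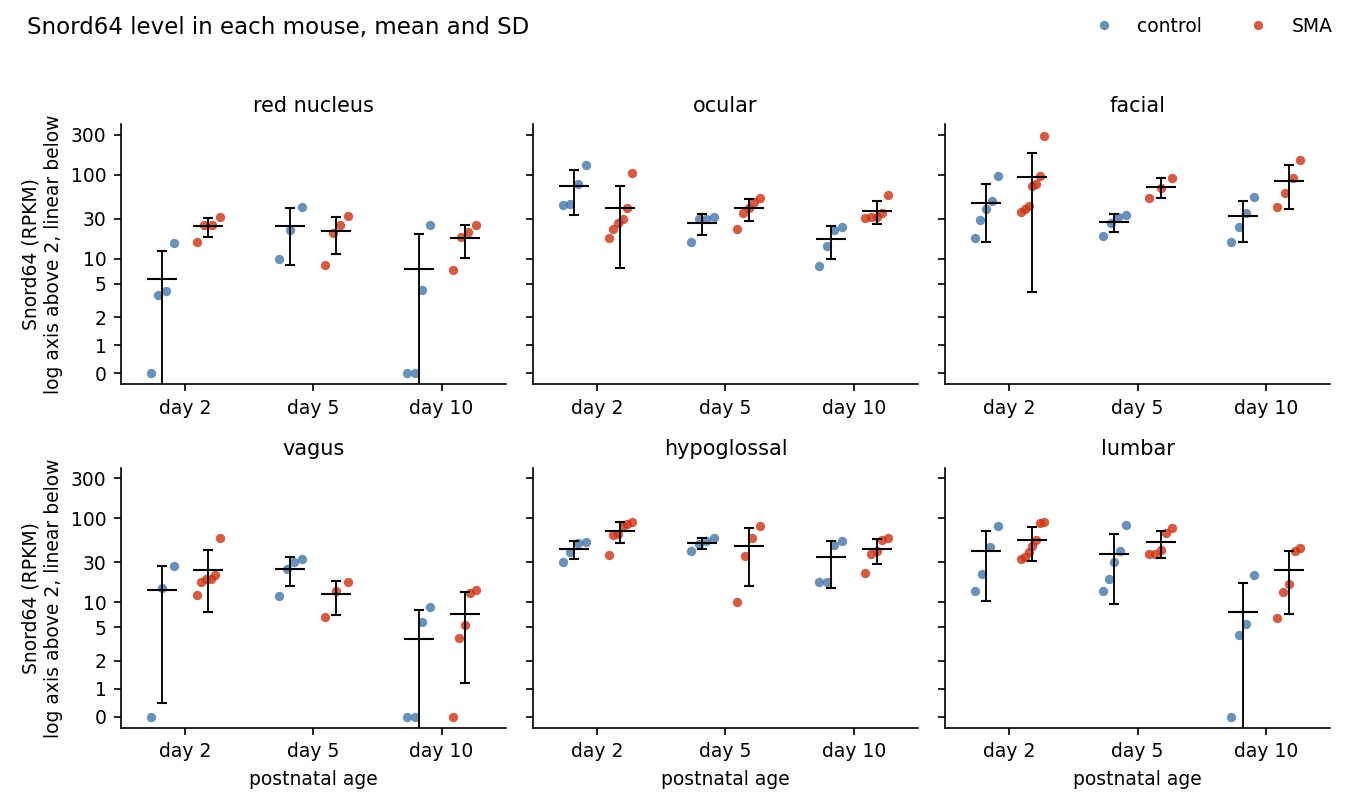
Snord64 level in RPKM (vertical axis, logarithmic above 2 and linear below) in every mouse by postnatal day, with 1 panel per population. Blue points are control and red points SMA mice, and black bars give the mean and SD. Controls are lower in the red nucleus and vagus than in hypoglossal neurons, and lower at day 10 than at day 2 in ocular and lumbar neurons.

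Between populations of control mice, Snord64 was the member that differed most. Each population was set against the mean of the others, and 7 of 462 tests passed (1.52%), against 16.8% of all rows, 8.75% higher and 8.01% lower. Snord64 made 5 of the 7. It was lower in the red nucleus (11.5 ± 13.4 RPKM, SD, n = 11, log2 difference -1.70) and the vagus (14.2 ± 12.6, n = 11, -1.44). It was higher in hypoglossal (42.7 ± 14.1, n = 12, 1.37), ocular (39.3 ± 34.1, n = 12, 0.90) and facial neurons (36.2 ± 21.7, n = 13, 0.97), while lumbar neurons (29.1 ± 27.0, n = 13) were between. The limma adjusted p ranged from 1.05e-05 in the red nucleus to 0.0301 in ocular neurons. The ocular call was lost without control mouse 26, 29, 30, 71, 252 or 254 (up to 0.105) and the facial call without 14, 26, 71, 75 or 247 (up to 0.0747). Snord107, which lies in the same gene as Snord64, had control means of 9.76 to 15.4 in the 6 populations and was not called.

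Snord35a was lower in the red nucleus than elsewhere (10.5 ± 7.99 RPKM, n = 11, log2 difference -1.25, adjusted p = 0.0314). This call was lost without control mouse 28, 30, 34, 244, 247, 252 or 253 (up to 0.1). Snord45b was called higher in lumbar neurons (log2 difference 0.42, adjusted p = 0.00457) on 4 reads in 3 of 13 samples, so this call rests on very few reads, and it was lost without control mouse 30, 244 or 253 (up to 0.216). Snord13, Snord118 and Snord104 were called in 0 of 6 populations.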

How the data were processed

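The authors deposited 1 table of RPKM values with 168 libraries, made from laser-captured neurons. Per the submitters' processing notes, STAR 2.4.1c and the builds mm10 and hg19 were used, while the counting tool, annotation and strand handling are not given in the sources used here. Overlapping genes and near-identical copies are therefore uncertain.

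Libraries of the same mouse and population were averaged to 160 samples. Differences were tested two-sided with limma 3.58.1 in R 4.3.3 on log2(RPKM + 1), computed from the deposited values (lmFit, eBayes with a trend, Benjamini-Hochberg over all rows of a contrast). Differences are on that scale, which understates the change of low genes. Each population was fitted with its 6 groups, keeping rows at 1 RPKM or more in as many samples as the smallest group. Population contrasts and the change of the genotype effect with population used all 36 groups. Relative depth came from the steps of low RPKM values, 1 read each. Tables and figures were made in Python 3.11.15 with pandas 2.3.3, scipy 1.17.1 and matplotlib 3.10.9. Positions and transcript sequences are from GENCODE M21 (GRCm38). The sequence of Snord13 is not reported here.

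The members, gene lists and tests were chosen with earlier results of these data known. Named genes were Snord13, members past a threshold (for age and population up to 2 each way per contrast), the 12 highest members, all Scarna rows, those at the edge of the rule, hosts, neighbours, list genes and the 5 rows most like Snord13. Scarna2, Scarna17, Snord49b and Snora41 values by group, Snora23 and Rnu3a were added after values were seen. The other settings tried were pseudocount, filter, normalization, robust fitting, libraries kept apart, 2 groups alone, combined ocular nuclei, a mouse block and each mouse left out.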

Additional observations from a re-analysis of the deposited data

Results flagged for a closer look

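In 44 group tests for a single mouse far from the rest, 8 groups had a highest Snord13 value that stood apart (Dixon's test). The test picks about 1 in 20 groups by chance where values follow a normal distribution. These RPKM were often near the floor and spread towards high values, so that rate need not hold here. In SMA mice these were 90.4 RPKM in the red nucleus at day 5 and 78.9 in hypoglossal neurons at day 5, both in mouse 31, where the next values were 16.9 and 30.1. They were also 160.4 in facial and 58.9 in lumbar neurons at day 2, both in mouse 206, where the next were 70.6 and 19.9. The others were 119.3 in hypoglossal neurons at day 2 (mouse 211, next 44.01) and 67.3 in lumbar neurons at day 10 (mouse 196, next 21.3). In controls they were 3.48 in facial and 6.74 in lumbar neurons at day 10, both in mouse 253, where the next were 2.07 and 0. These control values rested on 1 read in facial and 2 reads in lumbar neurons. The next facial value was 2 reads in a deeper library (9.29 against 2.76 Mreads). The other lumbar controls were all at 0, so any value above 0 would have stood apart.

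The SMA effect on Snord67 differed between populations at day 10 (F test over the populations in limma, adjusted p = 0.0376). Its mean was 16.9 RPKM in ocular SMA and 0 in ocular control samples, and 0 in lumbar SMA and 6.54 in lumbar control samples. Most samples of both genotypes were listed at 0. The share of member tests of this kind that passed was 0.433%, against 0.395% of all rows. With a pseudocount of 0.1, 0 member tests passed, and with no filter 2 passed.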

How the results depend on the processing

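No called difference changed sign. Uncalled differences of Snord13 changed sign without 1 mouse in 4 contrasts: lumbar day 2 (0.49, and -0.0998 without control mouse 240), red nucleus day 2, vagus day 5 and vagus day 10. With the 2 groups fitted alone, 4 member tests of SMA against control passed instead of 8, Snord13 passed in 3 contrasts instead of 6, and 1 age test passed instead of 3 (Snord64 in lumbar controls had an adjusted p of 0.0551). The cause was not tested. Of the tests for a genotype effect that changed with population, 1 passed, against 0 with a pseudocount of 0.1 and 2 with no filter. At 10 RPKM in 3 libraries, 35 members remain by construction. Leaving out each of 34 mice gave 5 to 9 member tests of SMA against control (5 without control mouse 247 or 254), 4 to 6 for Snord13, 2 to 4 for age, 4 to 10 for population (4 without control mouse 30), 0 to 2 for the genotype effect by age and 0 to 4 by population (4 without SMA mouse 61). With libraries kept apart, Snord13 in ocular neurons at day 5 passed (0.0163). Snord13 in facial neurons at day 10 passed in all 33 alternatives, at 2.92e-06 to 0.00137. Genotypes do not share mice, so no paired fit of them was possible. With mouse as a replicate block (correlation 0.0366), 7 population tests and 1 by population passed, as without it. Most members rest on few reads, which limits what these data can show.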
